A study of Homo sapiens with 18 samples.

Results

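Cholesterol and fatty acid synthesis genes are described here, a set of 29 genes given by symbol and matched to their Ensembl IDs among the 40184 gene IDs of the table. All 29 were found. All 29 were tested in each cell line, since each had at least 1 CPM (reads per 1000000 reads of the scaled library) in at least 3 libraries of that line. The set was not chosen by a threshold on a measured value. The RNA came from 18 cultures of 3 cell lines of human acute myeloid leukaemia. FLT3, a receptor gene, has an internal tandem duplication (FLT3-ITD) in Molm-14 and in MV4-11. KIT, also a receptor gene, has the change N822K in SKNO-1. Each line received the vehicle DMSO or 500 nM RMC-4550 for 24 h, with 3 cultures labelled as biological replicates in each of the 6 groups. RMC-4550 is a small molecule that holds the phosphatase SHP2, the product of PTPN11, in its closed form. SHP2 passes signals from receptor tyrosine kinases to RAS. Both SKNO-1 groups were grown with GM-CSF at 10 ng/mL and the other groups were not, so growth factor, genotype and line cannot be told apart. Each genotype stands for 1 or 2 cell lines. The p-values below measure the spread between replicate cultures, pooled over the 6 groups, so a gene has the same SE in each line. The design asked which transcripts changed with RMC-4550 in each line and whether the lines differed in that change.

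Cells make cholesterol and fatty acids from acetyl-CoA. Cytosolic acetyl-CoA is released from citrate by ACLY and enters either the mevalonate pathway, which runs through isoprenoid units to squalene and then to sterols, or the fatty acid pathway, in which ACACA makes malonyl-CoA and FASN builds palmitate. Many of these genes are transcribed under the SREBP factors, encoded by SREBF1 and SREBF2. These are made as membrane proteins of the endoplasmic reticulum, are held there by INSIG proteins while sterol is plentiful, and are cut free in the Golgi when sterol is scarce. Growth factor signalling through the PI3K and mTORC1 routes is known to raise SREBP activity in many cell types, and dividing leukaemia cells draw on both pathways for new membrane.

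With RMC-4550, most transcripts of both pathways were lower in each of the 3 lines. The summed level of the 29 genes was 5563, 5625 and 5860 CPM with DMSO and 2321, 1591 and 2146 CPM with RMC-4550 in Molm-14. It was 3168, 4428 and 3094 against 2087, 2592 and 2615 CPM in MV4-11, and 3440, 3487 and 3470 against 1975, 2099 and 2035 CPM in SKNO-1. The groups did not overlap in any line. In Molm-14, 27 of the 29 genes were called lower and 0 higher, where a call is a Benjamini-Hochberg adjusted p under 0.05 by limma over every gene tested in that line. Among all genes tested in Molm-14, 25.2% were called lower and 21.5% higher. In MV4-11, 17 of the 29 were called lower and 0 higher, against 8.03% and 5.85% of all genes. In SKNO-1, 24 of the 29 were called lower and 0 higher, against 16.2% and 10.8% of all genes. With voom weights in place of the trend, again 0 were higher in each line, and at an unadjusted limma p under 0.05 the number higher was 1 in Molm-14, 0 in MV4-11 and 1 for SKNO-1. The median log2 change over the 29 genes was -1.32 for Molm-14, -0.54 for MV4-11 and -0.69 for SKNO-1. Over all genes tested the medians were -0.06, -0.01 and -0.05 in the same order. ELOVL6 reached 1 CPM in Molm-14 in its DMSO libraries only, so its call there could only have been a fall. The shares are relative to the rest of each library, and in bulk RNA fewer cells with a transcript and less of it per cell cannot be told apart.

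Of the 29 genes, 16 were called lower in all 3 lines: HMGCS1, MVK, MVD, IDI1, FDPS, FDFT1, MSMO1, HSD17B7, SC5D, DHCR7, INSIG1, STARD4, FASN, SCD, ELOVL6 and FADS1. They come from every step but the supply of acetyl-CoA. ELOVL6 could only have been called as a fall in Molm-14, as stated above. The share of all genes called lower in all 3 lines, or in exactly 2, is not given here, so these counts stand without a background. A further 9 were called lower in exactly 2 lines, of which ACLY, ACAT2, SQLE, LSS, NSDHL, SREBF1, ACACA and FADS2 missed the threshold in MV4-11 and EBP missed it in SKNO-1. PMVK and SREBF2 were called lower in Molm-14 only. CYP51A1 and TM7SF2 were called in no line by this fit. The 3 RMC-4550 libraries lay below all 3 DMSO libraries for 28 of the 29 genes in Molm-14, where 33.1% of all genes did so, for 20 in MV4-11 against 13.5%, and for 27 in SKNO-1 against 35.4%.

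Calls near the threshold depended on the setting. In Molm-14 the call of EBP ended with no filter on low values, with median-ratio scaling and with quantile normalization. There PMVK lost its call with quantile normalization or a separate fit per line, SREBF2 with a separate fit, and FADS2 with voom weights (limma adjusted p = 0.098). In MV4-11 the calls of EBP and SCD ended with no filter, and a separate fit ended 10 of the 17. In SKNO-1 no filter ended the calls of ACLY, NSDHL, SREBF1 and INSIG1, median-ratio scaling those of ACLY and SREBF1, and quantile normalization those of MVD, HSD17B7 and SREBF1. SREBF2 was called lower in SKNO-1 with quantile normalization (adjusted p = 0.029) and with a separate fit (2.6e-06). That separate fit kept all 24 SKNO-1 calls. It called 57.6% of all genes in either direction, against 27.1% in the fit of all samples.

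**Figure D1:**
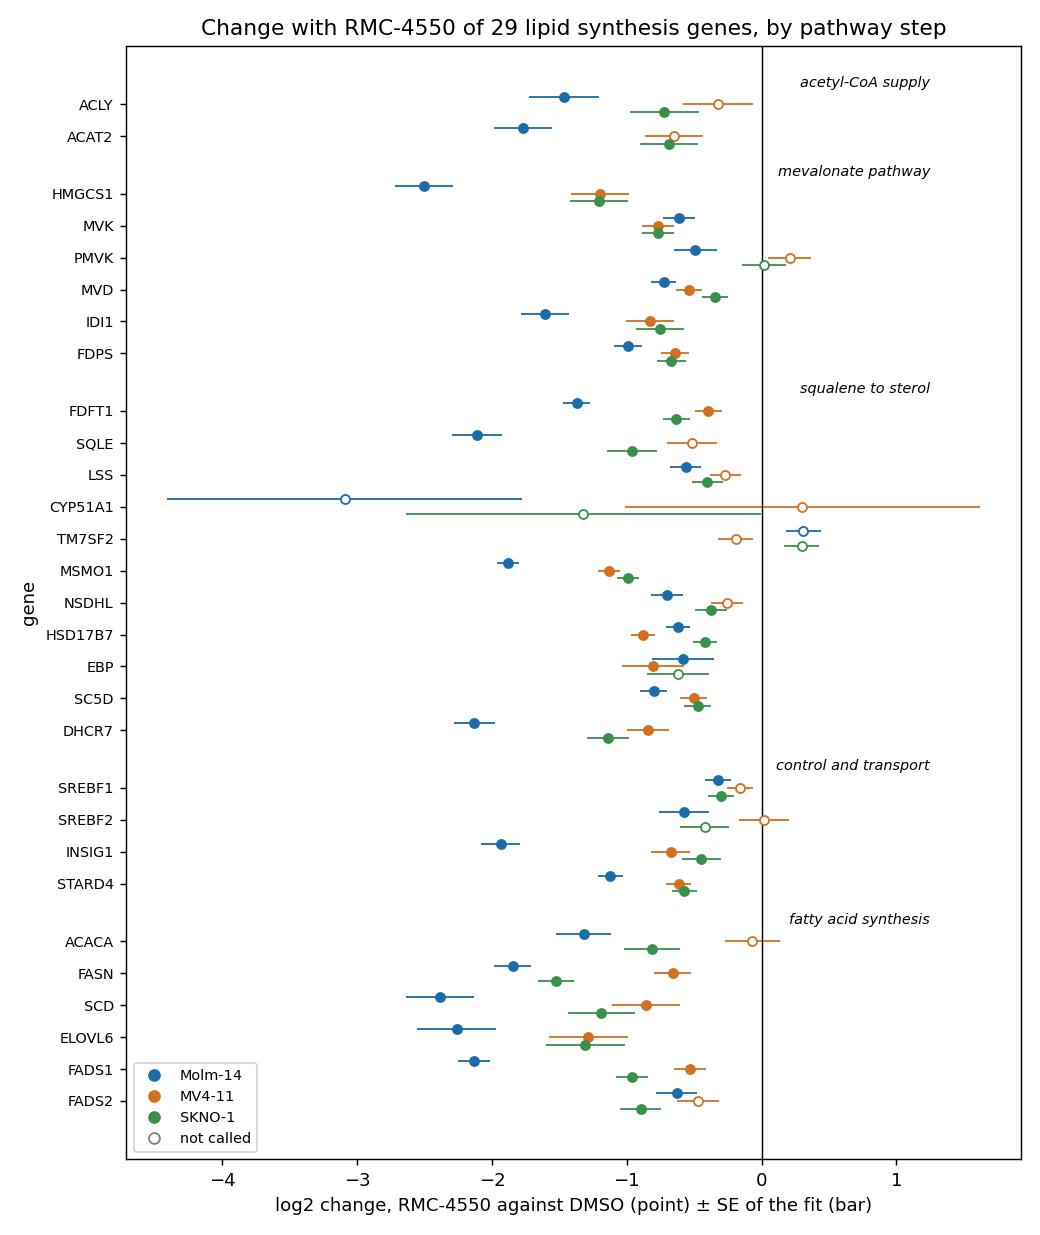
Log2 change with RMC-4550 (x axis, point, with the SE of the limma fit as a bar) of each of the 29 genes (y axis, grouped by pathway step), with 1 colour per cell line. Filled points were called and open points were not. Nearly all points lie left of 0, and HMGCS1 in Molm-14 (-2.50) is the lowest that was called.

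By pathway step, the median log2 change of the 2 genes of acetyl-CoA supply was -1.62 for Molm-14, -0.49 for MV4-11 and -0.70 for SKNO-1. In the same order of lines it was -0.86, -0.70 and -0.71 for the 6 genes of the mevalonate pathway. From squalene to sterol, 11 genes, it was -0.80, -0.50 and -0.62. For the 4 genes of control and transport it was -0.85, -0.39 and -0.43. The 6 fatty acid synthesis genes had the lowest medians of the 5 steps in Molm-14 (-1.99) and SKNO-1 (-1.08), while in MV4-11 (-0.60) the mevalonate step was lower.

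The libraries differed in ways the groups did not. Recovered totals were 17434810 to 19959917 reads. Reads of mitochondrial genes made up 5.07% to 7.02% of 14 libraries, but 15.02% of the second RMC-4550 replicate of Molm-14, 12.7% and 14.6% of DMSO replicates 1 and 3 of MV4-11, and 10.5% of the first RMC-4550 replicate of MV4-11. In every line the myeloid genes CD33, SPI1, CSF3R, CEBPA, LYZ and FLT3 were present. MPO ran from 0.634 to 437 CPM and KIT from 0.115 to 40.9 CPM over the libraries. RUNX1T1, the fusion partner gene of SKNO-1, was at 10.9 to 14.4 CPM in SKNO-1 and at most 0.0507 CPM elsewhere. The summed level of 8 myeloid markers matched of 9 was higher with RMC-4550 than with DMSO in each line: 1625 to 1717 against 1369 to 1383 CPM in Molm-14, 1626 to 1707 against 1435 to 1496 CPM in MV4-11, and 1860 to 1987 against 1549 to 1605 CPM in SKNO-1. The 8 did not move together. In Molm-14, CSF3R was at 415 to 647 CPM with RMC-4550 against 244 to 250 CPM with DMSO. CD33 (34.5 to 44.2 against 45.3 to 47.6 CPM) and FLT3 (484 to 597 against 613 to 633 CPM) were lower there. CD33 was lower in SKNO-1 too (138 to 147 against 153 to 161 CPM). Of 8 genes of other cell types, CD3E, MS4A1 and EPCAM stayed at or under 0.113 CPM, while PECAM1 was at 104 to 220 CPM. Their sum was 116 to 193 with RMC-4550 against 153 to 165 CPM with DMSO in Molm-14, 169 to 227 against 129 to 230 CPM in MV4-11, and 163 to 173 against 121 to 134 CPM in SKNO-1. The part of these marker sums in the falls was not tested.

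The mitochondrial share moved with the size of the members' fall. For each library, the median over the 29 genes of the log2 level minus the DMSO mean of its line was -1.06, -1.60 and -1.15 in the 3 RMC-4550 libraries of Molm-14, and the lowest was the library at 15.02%. In MV4-11 it was -0.10, 0.24 and -0.15 with DMSO, where replicate 2 alone had a low mitochondrial share, and -0.77, -0.52 and -0.52 with RMC-4550. The RMC-4550 libraries of SKNO-1 had -0.66, -0.72 and -0.63. Among libraries under 10% only, the median change of the 29 genes was -1.10 in Molm-14 (3 against 2 libraries) and -0.72 in MV4-11 (1 DMSO against 2 RMC-4550 libraries). Among the 3 MV4-11 libraries over 10% (2 DMSO against 1 RMC-4550 library) it was -0.56, with 28 of the 29 changes below 0. On each side of the 10% line 1 of the MV4-11 groups was a single library. The part of the mitochondrial share in the fall was not tested. With the 4 high libraries left out, which was chosen after seeing the data, the genes called lower were 28 of 29 for Molm-14, against 58.7% of all genes called in either direction, and 27 of 29 for SKNO-1, against 53.3%. For MV4-11 the DMSO group of that fit was 1 library, assumed to vary like the other groups, so its number of calls is not given. With all libraries kept and the mitochondrial share as a covariate, 26 of the 29 genes were called lower in MV4-11, against 34.3% of all genes in either direction. The 9 added there were ACLY (-0.69), ACAT2 (-0.94), SQLE (-0.77), LSS (-0.39), NSDHL (-0.39), CYP51A1 (-1.52), SREBF2 (-0.23), ACACA (-0.35) and FADS2 (-0.53). In SKNO-1 the covariate added CYP51A1 (-1.10), EBP (-0.65) and SREBF2 (-0.39), and in Molm-14 CYP51A1 (-1.33).

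**Figure D2:**
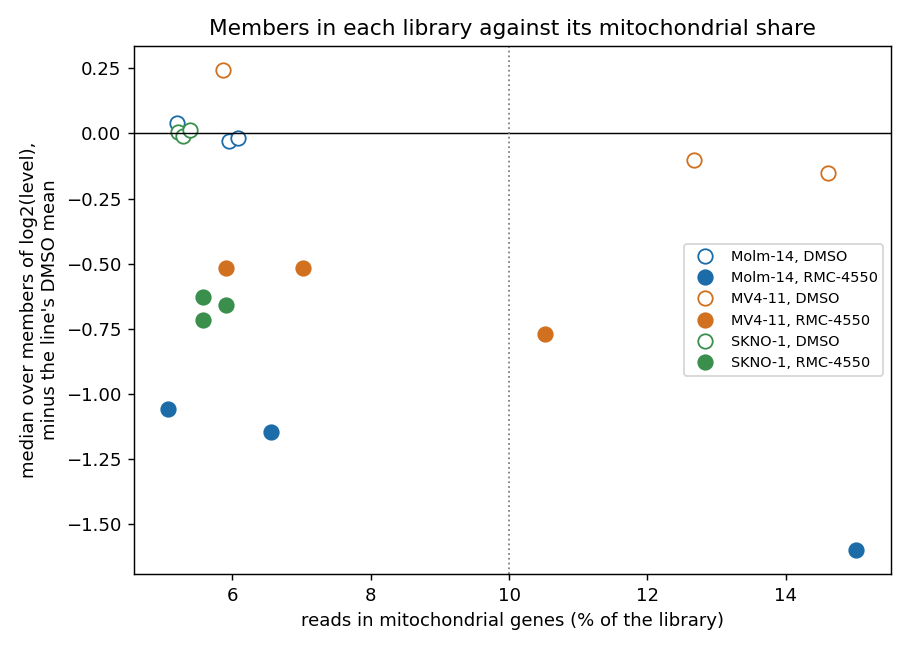
Each point is a library, with the share of its reads in mitochondrial genes on the x axis (%) and the median over the 29 genes of the log2 level minus the DMSO mean of the line on the y axis (open for DMSO, filled for RMC-4550). The RMC-4550 libraries lie between -1.60 and -0.52 and the DMSO libraries between -0.15 and 0.24, and the dotted line marks the 10% split.

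Promoter sequences were available from RefSeq (GRCh38.p14) for 25 of the 29 genes, as 34 windows of 250 bases before a transcript start. Short motifs known from sterol-regulated promoters were searched on both strands. CCAAT, the core bound by NF-Y, a partner of the SREBPs, was in 23 of the 34 windows (67.6%), against 32.0% of all 35116 windows of the table. Of the windows of protein-coding genes alone, 32.7% held it. GGGCGG, the Sp1 box, was in 30 windows (88.2%) against 42.6% of all windows and 53.7% of those of protein-coding genes, and CACGTG, an E-box, in 3 (8.82%) against 6.34%. TCACNCCAC, a core of the sterol regulatory element, was in 1 window (2.94%) against 0.883%. Windows of 1 gene can overlap, and these shares are descriptions only. The following 3 windows are shown since they set a gene called lower in every line with its lowest p (MSMO1) and one of the steepest falls (HMGCS1) beside a gene called in no line (TM7SF2). Capitals mark CCAAT on either strand, which reads ATTGG on the other.
MSMO1, chr4:165327419-165327668, plus strand: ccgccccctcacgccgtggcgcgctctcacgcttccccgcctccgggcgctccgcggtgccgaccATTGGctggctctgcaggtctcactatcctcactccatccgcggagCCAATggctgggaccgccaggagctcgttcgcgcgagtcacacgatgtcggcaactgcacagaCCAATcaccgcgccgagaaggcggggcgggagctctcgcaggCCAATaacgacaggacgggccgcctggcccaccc
HMGCS1, chr5:43313413-43313662, minus strand: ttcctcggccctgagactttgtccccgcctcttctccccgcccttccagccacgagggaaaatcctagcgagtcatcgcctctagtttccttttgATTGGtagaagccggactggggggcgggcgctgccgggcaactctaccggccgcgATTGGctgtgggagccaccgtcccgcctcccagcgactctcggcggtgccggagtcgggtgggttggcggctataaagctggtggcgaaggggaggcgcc
TM7SF2, chr11:65111622-65111871, plus strand: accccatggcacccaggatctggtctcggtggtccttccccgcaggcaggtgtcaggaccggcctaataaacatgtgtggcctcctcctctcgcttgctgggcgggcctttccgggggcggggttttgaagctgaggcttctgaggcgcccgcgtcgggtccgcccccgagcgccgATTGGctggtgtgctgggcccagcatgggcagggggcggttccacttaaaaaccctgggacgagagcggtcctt

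The MSMO1 window holds 4 CCAAT cores, the HMGCS1 window shown 2 and the TM7SF2 window 1, while another HMGCS1 window, for a start nearer the gene's 3′ end, holds 0, and so the motif was present in the promoter of a gene that was not called too. The windows of FADS1 and ELOVL6, both called lower in every line, hold 0 CCAAT cores, and that of INSIG1 holds 1, as for TM7SF2. The only member window with TCACNCCAC was that of SREBF2, which encodes SREBP-2 itself. The 49 bases around it are given with the core in capitals, and 124 bases lie between the core and the start.
SREBF2, chr22:41832952-41833000, plus strand: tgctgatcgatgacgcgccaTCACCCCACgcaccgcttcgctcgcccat

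The first step supplies acetyl-CoA and its dimer. Gene positions are those of GENCODE 29 on GRCh38. ACLY (ENSG00000131473, chr17:41866908-41930542) splits citrate into acetyl-CoA and oxaloacetate. In Molm-14, ACLY stood at 218, 222 and 234 CPM with DMSO and 101, 54.6 and 97.2 CPM with RMC-4550. In MV4-11 it stood at 102, 205 and 99.3 CPM with DMSO and 74.6, 122 and 116 CPM with RMC-4550. In SKNO-1 it stood at 155, 158 and 148 CPM with DMSO and 93.5, 94.3 and 91.4 CPM with RMC-4550. The groups were apart in Molm-14 and SKNO-1 and overlapped in MV4-11, where DMSO replicate 2 was far above the other 2 DMSO libraries. The log2 changes were -1.47 for Molm-14 (SE 0.26, adjusted p = 0.00027), -0.32 for MV4-11 (SE 0.26, adjusted p = 0.47) and -0.72 for SKNO-1 (SE 0.26, adjusted p = 0.049). The SKNO-1 call lay close to the threshold, and leaving out any 1 of the 6 SKNO-1 libraries ended it (changes of -0.75 to -0.70). Without DMSO replicate 2, the only MV4-11 DMSO library with a low mitochondrial share, the MV4-11 change was 0.02, while the fit with that share as covariate gave -0.69 (adjusted p = 3.4e-07).

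ACAT2 (ENSG00000120437, chr6:159760328-159779055) joins 2 acetyl-CoA molecules into acetoacetyl-CoA, the entry to the mevalonate pathway. Its Molm-14 levels were 52.9, 53.6 and 56.4 CPM with DMSO and 20.8, 10.95 and 17.5 CPM with RMC-4550. Its MV4-11 levels were 24.7, 41.9 and 26.6 CPM with DMSO and 15.5, 23.5 and 19.4 CPM with RMC-4550. Its SKNO-1 levels were 20.1, 19.5 and 20.5 CPM with DMSO and 13.2, 11.4 and 12.7 CPM with RMC-4550. All RMC-4550 libraries lay below all DMSO libraries of their line. ACAT2 had log2 changes of -1.77 for Molm-14 (SE 0.22, adjusted p = 9.3e-06), -0.65 for MV4-11 (SE 0.22, adjusted p = 0.058) and -0.69 for SKNO-1 (SE 0.22, adjusted p = 0.027), so MV4-11 missed the threshold. The SKNO-1 call ended in 5 of 6 cases when 1 library was left out (any DMSO library, or RMC-4550 replicate 2 or 3, with changes of -0.73 to -0.62 over all 6 cases). ACAT2 exons share 26.5% of their bases with SOD2 and 33.9% with SOD2-OT1 on the opposite strand, and whether counting used strand is not given in the sources used here.

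In the mevalonate pathway all 6 genes passed the test as lower in Molm-14, as did 5 of 6 in both MV4-11 and SKNO-1. HMGCS1 (ENSG00000112972, chr5:43289395-43313512), the synthase that makes HMG-CoA, had the lowest log2 change of the called genes of the set in Molm-14. Its levels in Molm-14 were 213, 212 and 221 CPM with DMSO and 44.8, 27.3 and 44.7 CPM with RMC-4550. For MV4-11 they were 83.6, 149.6 and 80.4 CPM with DMSO and 36.1, 52.8 and 43.7 CPM with RMC-4550. For SKNO-1 they were 95.9, 91.2 and 88.8 CPM with DMSO and 42.2, 37.3 and 40.3 CPM with RMC-4550. The groups did not overlap in any line, and the RMC-4550 mean was 18.1% of the DMSO mean for Molm-14, 42.3% for MV4-11 and 43.4% for SKNO-1. HMGCS1 fell with log2 changes of -2.50 for Molm-14 (SE 0.21, adjusted p = 2.4e-07), -1.20 for MV4-11 (SE 0.21, adjusted p = 0.0013) and -1.20 for SKNO-1 (SE 0.21, adjusted p = 0.00056). An antisense gene, AC114947.2, shares 14.95% of its exon bases.

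IDI1 (ENSG00000067064, chr10:1039152-1049170) turns isopentenyl diphosphate into its isomer, the primer of isoprenoid chains. Molm-14 libraries held IDI1 at 144, 135 and 137 CPM with DMSO and 53.02, 32.2 and 55.7 CPM with RMC-4550. MV4-11 libraries held it at 66.8, 103 and 79.2 CPM with DMSO and 41.4, 51.8 and 45.5 CPM with RMC-4550. SKNO-1 libraries held it at 67.7, 63.01 and 59.9 CPM with DMSO and 39.8, 34.6 and 38.5 CPM with RMC-4550. Treated and control libraries were separate in all 3 lines. IDI1 had log2 changes of -1.60 for Molm-14 (SE 0.18, adjusted p = 3.3e-06), -0.83 for MV4-11 (SE 0.18, adjusted p = 0.005) and -0.76 for SKNO-1 (SE 0.18, adjusted p = 0.0046). FDPS (ENSG00000160752, chr1:155308748-155320666) condenses these units to farnesyl diphosphate. FDPS was at 112, 114 and 117 CPM with DMSO and 63.1, 50.7 and 60.2 CPM with RMC-4550 in Molm-14. It was at 78.5, 93.2 and 72.9 CPM with DMSO and 45.6, 56.6 and 54.3 CPM with RMC-4550 in MV4-11. It was at 59.4, 57.2 and 55.98 CPM with DMSO and 36.4, 34.8 and 37.4 CPM with RMC-4550 in SKNO-1. No RMC-4550 library reached a DMSO library of its line. FDPS had log2 changes of -0.99 for Molm-14 (SE 0.10, adjusted p = 2.1e-06), -0.64 for MV4-11 (SE 0.10, adjusted p = 0.00058) and -0.67 for SKNO-1 (SE 0.10, adjusted p = 0.00019). The antisense genes IDI2-AS1 and RUSC1-AS1 share 14.8% of the exon bases of IDI1 and 18.6% of those of FDPS.

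MVK (ENSG00000110921, chr12:109573255-109598117) and MVD (ENSG00000167508, chr16:88651935-88663161), the kinase and the decarboxylase of mevalonate, were called lower in each line. MVK was at 46.2, 45.2 and 46.7 CPM with DMSO and 30.4, 32.2 and 27.9 CPM with RMC-4550 in Molm-14. In MV4-11 MVK was at 37.8, 34.1 and 40.3 CPM with DMSO and 24.6, 18.5 and 23.1 CPM with RMC-4550. In SKNO-1 MVK was at 22.3, 18.7 and 21.3 CPM with DMSO and 10.6, 12.6 and 13.4 CPM with RMC-4550. All groups of MVK were apart, also in MV4-11, where the 3 DMSO libraries lay closer together than for HMGCS1 or IDI1. MVK had log2 changes of -0.61 for Molm-14 (SE 0.12, adjusted p = 0.00062), -0.77 for MV4-11 (SE 0.12, adjusted p = 0.00038) and -0.77 for SKNO-1 (SE 0.12, adjusted p = 0.00016). MVD was at 74.3, 75.1 and 77.5 CPM with DMSO and 46.4, 42.3 and 48.5 CPM with RMC-4550 in Molm-14. In MV4-11 MVD was at 78.8, 69.7 and 75.2 CPM with DMSO and 52.3, 46.1 and 55.98 CPM with RMC-4550. In SKNO-1 MVD was at 60.6, 61.1 and 64.6 CPM with DMSO and 42.5, 52.8 and 51.7 CPM with RMC-4550. The groups of MVD were apart in each line, with RMC-4550 replicate 1 the lowest in SKNO-1. MVD had log2 changes of -0.73 for Molm-14 (SE 0.10, adjusted p = 1.9e-05), -0.54 for MV4-11 (SE 0.10, adjusted p = 0.0012) and -0.35 for SKNO-1 (SE 0.10, adjusted p = 0.013). In SKNO-1 the MVD call ended without RMC-4550 replicate 1 (-0.25) or without DMSO replicate 3 (-0.32). PMVK, the kinase between these 2 steps, fell in Molm-14 (-0.49, adjusted p = 0.02), and had changes of 0.21 in MV4-11 and 0.02 in SKNO-1, neither called. Its Molm-14 call ended without RMC-4550 replicate 2, the library with the high mitochondrial share (-0.27), and without DMSO replicate 3 (-0.42).

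From squalene to sterol, 9 of 11 genes were called lower in Molm-14, 8 in SKNO-1 and 6 in MV4-11. FDFT1 (ENSG00000079459, chr8:11795573-11839309) makes squalene and so commits isoprenoids to sterols. FDFT1 read 315, 305 and 319 CPM with DMSO and 128, 103 and 133 CPM with RMC-4550 in Molm-14. FDFT1 read 243, 302 and 239 CPM with DMSO and 192, 197 and 205 CPM with RMC-4550 in MV4-11. FDFT1 read 309, 322 and 335 CPM with DMSO and 208, 203 and 212 CPM with RMC-4550 in SKNO-1. The DMSO levels of Molm-14 and SKNO-1 covered overlapping ranges, while the RMC-4550 libraries of Molm-14 were all lower than those of SKNO-1. FDFT1 had log2 changes of -1.37 for Molm-14 (SE 0.10, adjusted p = 4.9e-08), -0.39 for MV4-11 (SE 0.10, adjusted p = 0.015) and -0.63 for SKNO-1 (SE 0.10, adjusted p = 0.0002). SQLE (ENSG00000104549, chr8:124998497-125022283) puts the first oxygen on squalene. SQLE read 102, 103 and 100.1 CPM with DMSO and 29.6, 17.7 and 24.7 CPM with RMC-4550 in Molm-14. SQLE read 52.9, 90.99 and 57.99 CPM with DMSO and 38.1, 51.9 and 48.1 CPM with RMC-4550 in MV4-11. SQLE read 127, 117 and 121 CPM with DMSO and 64.1, 62.4 and 60.96 CPM with RMC-4550 in SKNO-1. The groups of SQLE were apart in every line, by a narrow margin in MV4-11. SQLE had log2 changes of -2.11 for Molm-14 (SE 0.19, adjusted p = 3.3e-07), -0.52 for MV4-11 (SE 0.19, adjusted p = 0.081) and -0.96 for SKNO-1 (SE 0.19, adjusted p = 0.0011), and the MV4-11 value was not called.

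MSMO1 (ENSG00000052802, chr4:165327623-165343160), a methyl sterol oxidase, had the smallest adjusted p of the set in each line. Molm-14 had MSMO1 at 104, 103 and 106 CPM with DMSO and 30.3, 26.7 and 28.4 CPM with RMC-4550. MV4-11 had MSMO1 at 73.7, 88.7 and 81.3 CPM with DMSO and 38.98, 37.2 and 34.97 CPM with RMC-4550. SKNO-1 had MSMO1 at 49.9, 52.7 and 54.2 CPM with DMSO and 28.1, 25.4 and 25.6 CPM with RMC-4550. The libraries of each group lay close together and the groups were far apart. MSMO1 had log2 changes of -1.88 for Molm-14 (SE 0.08, adjusted p = 3.2e-10), -1.13 for MV4-11 (SE 0.08, adjusted p = 1.9e-07) and -0.99 for SKNO-1 (SE 0.08, adjusted p = 3.2e-07). DHCR7 (ENSG00000172893, chr11:71428193-71452868) performs a last reduction on the way to cholesterol. Molm-14 had DHCR7 at 113, 119.8 and 123 CPM with DMSO and 32.2, 21.1 and 28.9 CPM with RMC-4550. MV4-11 had DHCR7 at 57.95, 74.3 and 53.9 CPM with DMSO and 28.1, 36.8 and 38.9 CPM with RMC-4550. SKNO-1 had DHCR7 at 57.4, 62.7 and 63.99 CPM with DMSO and 25.6, 30.4 and 27.8 CPM with RMC-4550. Again no groups overlapped, and the DHCR7 mean with RMC-4550 was 23.2%, 55.8% and 45.5% of the DMSO mean. DHCR7 had log2 changes of -2.13 for Molm-14 (SE 0.16, adjusted p = 4.9e-08), -0.84 for MV4-11 (SE 0.16, adjusted p = 0.0016) and -1.14 for SKNO-1 (SE 0.16, adjusted p = 4.9e-05).

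HSD17B7 (ENSG00000132196, chr1:162790702-162812817) reduces a sterol ketone after demethylation. HSD17B7 was counted at 29.8, 32.8 and 30.2 CPM with DMSO and 20.1, 21.3 and 19.003 CPM with RMC-4550 in Molm-14. HSD17B7 was counted at 32.2, 27.9 and 33.5 CPM with DMSO and 16.1, 17.01 and 17.7 CPM with RMC-4550 in MV4-11. HSD17B7 was counted at 25.3, 23.5 and 23.8 CPM with DMSO and 18.97, 16.9 and 18.4 CPM with RMC-4550 in SKNO-1. DMSO and RMC-4550 libraries did not mix in any line. Its log2 changes were -0.62 for Molm-14 (SE 0.09, adjusted p = 4.8e-05), -0.88 for MV4-11 (SE 0.09, adjusted p = 8e-06) and -0.42 for SKNO-1 (SE 0.09, adjusted p = 0.0024). A copy of the gene, HSD17B7P2, reached 12 CPM, and reads shared between the copies could be assigned to either, so the level of HSD17B7 is uncertain.

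Among the other sterol genes, SC5D, a desaturase, was called lower in every line (-0.80, -0.50 and -0.48 for Molm-14, then MV4-11, then SKNO-1). LSS, which closes squalene epoxide into the first sterol, had log2 changes of -0.56, -0.27 and -0.40, called in Molm-14 and SKNO-1. In SKNO-1 the LSS call ended without RMC-4550 replicate 1 (-0.35), DMSO replicate 2 (-0.37) or DMSO replicate 3 (-0.39). NSDHL, a demethylating dehydrogenase, had log2 changes of -0.70, -0.26 and -0.38, also called in Molm-14 and SKNO-1. Its SKNO-1 call ended without any 1 of 5 libraries, all but RMC-4550 replicate 1 (-0.41 to -0.35). EBP, a sterol isomerase, had log2 changes of -0.58, -0.80 and -0.62, called in Molm-14 and MV4-11. The Molm-14 call of EBP ended without any 1 of 5 libraries, all but RMC-4550 replicate 2 (-0.61 to -0.46). Its MV4-11 call ended without DMSO replicate 1 (-0.75) or 3 (-0.59), or without RMC-4550 replicate 2 (-0.67) or 3 (-0.66). With the replicate number as a block, EBP in SKNO-1 was called (adjusted p = 0.0399). A separate fit (limma adjusted p = 1.4e-05), the mitochondrial covariate (9.9e-05), voom weights (0.035) and log2(CPM + 1) (0.048) called it lower there too.

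The 2 genes called in no line differed from each other. TM7SF2, a sterol reductase, was at 22.9, 22.9 and 23.3 CPM with DMSO and 26.9, 32.5 and 26.6 CPM with RMC-4550 in Molm-14. Here every RMC-4550 library was above every DMSO library, the reverse of the other 28 genes, as in 26.9% of all genes. In SKNO-1 it was at 36.9, 41.5 and 43.6 CPM with DMSO and 43.2, 52.7 and 54.5 CPM with RMC-4550, and in MV4-11 at 49.3, 37.8 and 50.7 CPM with DMSO and 43.04, 34.5 and 42.6 CPM with RMC-4550. TM7SF2 had log2 changes of 0.31 for Molm-14 (SE 0.13, adjusted p = 0.064), -0.19 for MV4-11 (SE 0.13, adjusted p = 0.39) and 0.30 for SKNO-1 (SE 0.13, adjusted p = 0.11). With the replicate number as a block, TM7SF2 was called higher in SKNO-1 (limma adjusted p = 0.0256). In Molm-14 it was called higher with median-ratio scaling and with quantile normalization. CYP51A1, the lanosterol demethylase, was counted at 0 to 4.46 CPM, and 79.4% of its exon bases (GENCODE 29) are shared with AC000120.2 on the same strand. Its counts are therefore uncertain. CYP51A1 had log2 changes of -3.09, 0.30 and -1.32 with an SE of 1.32. The Molm-14 value rests on RMC-4550 replicate 2, which had 0 reads, since without it the change was -1.23. CYP51A1 was called lower in Molm-14 with log2(CPM + 1) (-1.32, adjusted p = 0.012), with voom weights (adjusted p = 0.031) and with the mitochondrial covariate (adjusted p = 0.022). In SKNO-1 it was called lower with a separate fit (limma adjusted p = 0.00014) and with the mitochondrial covariate (0.047).

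In the group of control and transport, 4 of 4 genes were called lower in Molm-14, 3 in SKNO-1 and 2 in MV4-11. INSIG1 (ENSG00000186480, chr7:155297776-155310235) encodes a protein that keeps the SREBPs in the endoplasmic reticulum and is itself an SREBP target. INSIG1 levels in Molm-14 were 352, 339 and 359.5 CPM with DMSO and 109, 70.2 and 99.8 CPM with RMC-4550. INSIG1 levels in MV4-11 were 249.9, 346 and 255 CPM with DMSO and 155, 186 and 188 CPM with RMC-4550. INSIG1 levels in SKNO-1 were 201, 199 and 206 CPM with DMSO and 148, 148 and 149 CPM with RMC-4550. The groups were apart in each line, and the SKNO-1 libraries within a group differed little. INSIG1 had log2 changes of -1.94 for Molm-14 (SE 0.14, adjusted p = 6e-08), -0.68 for MV4-11 (SE 0.14, adjusted p = 0.0047) and -0.45 for SKNO-1 (SE 0.14, adjusted p = 0.03). The SKNO-1 call was close to the threshold, and leaving out any 1 of the 6 SKNO-1 libraries ended it (-0.46 to -0.43). The SE is shared by the 3 lines, and a separate fit for SKNO-1 kept the call. STARD4 (ENSG00000164211, chr5:111496033-111512590) carries sterol between membranes and is also known as an SREBP-2 target. STARD4 levels in Molm-14 were 155, 154 and 145 CPM with DMSO and 79.6, 59.8 and 71.1 CPM with RMC-4550. STARD4 levels in MV4-11 were 94.5, 97.4 and 87.4 CPM with DMSO and 63.2, 64.5 and 54.9 CPM with RMC-4550. STARD4 levels in SKNO-1 were 103, 104 and 106 CPM with DMSO and 70.8, 69.6 and 70.3 CPM with RMC-4550. No overlap between the groups was seen for STARD4. STARD4 had log2 changes of -1.12 for Molm-14 (SE 0.09, adjusted p = 1.9e-07), -0.61 for MV4-11 (SE 0.09, adjusted p = 0.00032) and -0.57 for SKNO-1 (SE 0.09, adjusted p = 0.00027).

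The genes of the factors themselves had log2 changes between -0.57 and 0.02. SREBF1 (ENSG00000072310, chr17:17810399-17837002) encodes SREBP-1, known mainly for fatty acid genes. For SREBF1, Molm-14 gave 232, 229.98 and 247 CPM with DMSO and 204, 178 and 185 CPM with RMC-4550. For SREBF1, MV4-11 gave 198, 183 and 196 CPM with DMSO and 163, 169 and 184 CPM with RMC-4550. For SREBF1, SKNO-1 gave 121, 135 and 129.5 CPM with DMSO and 89.4, 119 and 106 CPM with RMC-4550. The groups were apart in Molm-14 and SKNO-1 and overlapped in MV4-11. SREBF1 had log2 changes of -0.32 for Molm-14 (SE 0.10, adjusted p = 0.012), -0.16 for MV4-11 (SE 0.10, adjusted p = 0.32) and -0.30 for SKNO-1 (SE 0.10, adjusted p = 0.028). The SKNO-1 call ended without RMC-4550 replicate 1 (-0.19) or 3 (-0.31), or without DMSO replicate 2 (-0.27) or 3 (-0.29). SREBF2 (ENSG00000198911, chr22:41833079-41907308) encodes SREBP-2, known mainly for sterol genes. For SREBF2, Molm-14 gave 413, 417 and 436 CPM with DMSO and 353, 208 and 309 CPM with RMC-4550. For SREBF2, MV4-11 gave 293, 428 and 283 CPM with DMSO and 262, 367 and 379.9 CPM with RMC-4550. For SREBF2, SKNO-1 gave 432, 449.7 and 444 CPM with DMSO and 315, 347 and 327 CPM with RMC-4550. The MV4-11 groups overlapped, and the 2 DMSO libraries with a high mitochondrial share were lower than DMSO replicate 2. SREBF2 had log2 changes of -0.57 for Molm-14 (SE 0.18, adjusted p = 0.018), 0.02 for MV4-11 (SE 0.18, adjusted p = 0.97) and -0.42 for SKNO-1 (SE 0.18, adjusted p = 0.1). Its Molm-14 call ended without RMC-4550 replicate 2 (-0.35) or DMSO replicate 3 (-0.55), and its MV4-11 change ran from -0.09 to 0.21 as single libraries were left out. With the mitochondrial share as a covariate SREBF2 was called lower in MV4-11 (-0.23, adjusted p = 0.0062) and SKNO-1 (-0.39, adjusted p = 1.1e-05). Gene counts do not separate the transcript forms of SREBF1 or measure the cut, active proteins.

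**Figure D3:**
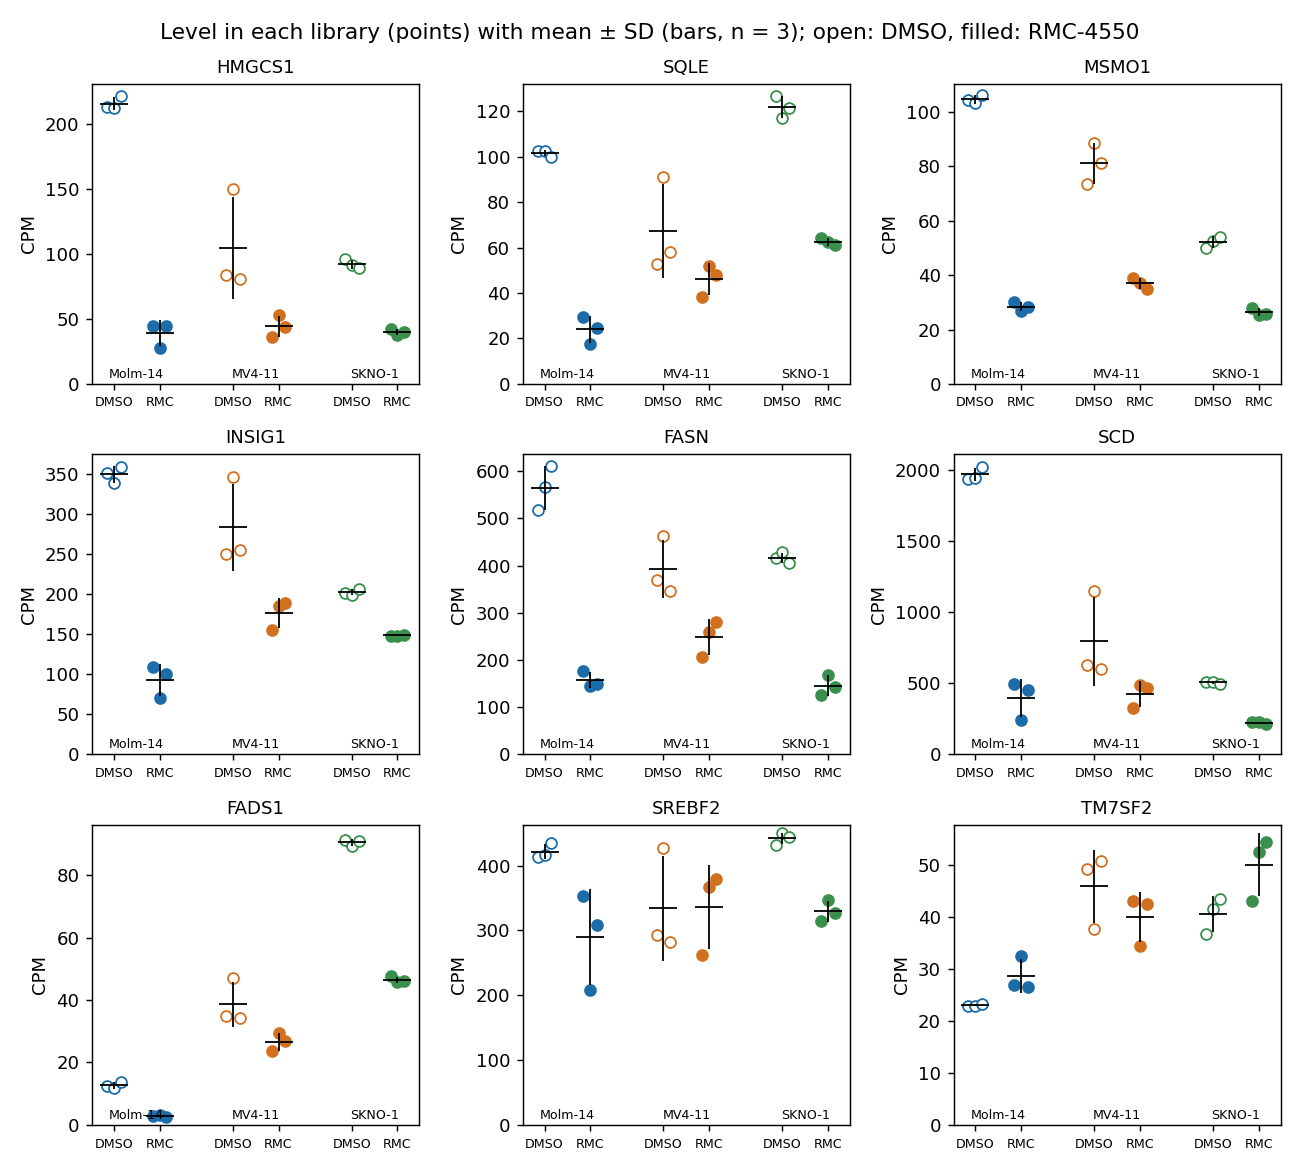
Level in CPM (y axis, starting at 0) of selected genes in each library (points), with mean ± SD as bars (n = 3), for DMSO (open) and RMC-4550 (filled) in the 3 lines (x axis). MSMO1 and SCD lie lower with RMC-4550 in every line, while SREBF2 overlaps between the MV4-11 groups.

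All 6 fatty acid synthesis genes were lower in SKNO-1 and Molm-14 by the test, and 4 of 6 in MV4-11. ACACA (ENSG00000278540, chr17:37084988-37406818) is the acetyl-CoA carboxylase that commits carbon to fatty acids. ACACA stood at 74.4, 76.4 and 84.6 CPM with DMSO and 37.6, 23.2 and 35.3 CPM with RMC-4550 in Molm-14. ACACA stood at 35.8, 60.4 and 33.9 CPM with DMSO and 32.2, 45.7 and 43.2 CPM with RMC-4550 in MV4-11. ACACA stood at 64.3, 54.3 and 56.3 CPM with DMSO and 32.5, 34.1 and 32.7 CPM with RMC-4550 in SKNO-1. The groups were apart in Molm-14 and SKNO-1 and overlapped in MV4-11. ACACA had log2 changes of -1.32 for Molm-14 (SE 0.20, adjusted p = 8.5e-05), -0.07 for MV4-11 (SE 0.20, adjusted p = 0.87) and -0.81 for SKNO-1 (SE 0.20, adjusted p = 0.0073), and the MV4-11 value ran from -0.22 to 0.19 as single libraries were left out. The fit with the mitochondrial share as covariate gave -0.35 (adjusted p = 0.00098). FASN (ENSG00000169710, chr17:82078333-82098332) is the multi-domain fatty acid synthase. FASN stood at 518, 566 and 612 CPM with DMSO and 177, 146 and 149.6 CPM with RMC-4550 in Molm-14. FASN stood at 369.8, 462 and 347 CPM with DMSO and 207, 259.5 and 280.4 CPM with RMC-4550 in MV4-11. FASN stood at 415, 428 and 406 CPM with DMSO and 126, 169 and 143 CPM with RMC-4550 in SKNO-1. The groups of FASN were apart in every line, and FASN had the lowest called change of the set in SKNO-1. FASN had log2 changes of -1.85 for Molm-14 (SE 0.14, adjusted p = 5.6e-08), -0.66 for MV4-11 (SE 0.14, adjusted p = 0.0038) and -1.53 for SKNO-1 (SE 0.14, adjusted p = 6.2e-07).

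SCD (ENSG00000099194, chr10:100347124-100364834), the stearoyl-CoA desaturase, makes monounsaturated fatty acids. The level of SCD in Molm-14 was 1938, 1942 and 2019 CPM with DMSO and 491, 240.5 and 450.5 CPM with RMC-4550. In MV4-11 the level was 628, 1151 and 602 CPM with DMSO and 322, 488 and 464 CPM with RMC-4550. In SKNO-1 the level was 511, 506 and 497 CPM with DMSO and 225, 226 and 214 CPM with RMC-4550. The DMSO mean was 1966 ± 45.8 CPM (SD, n = 3) in Molm-14, above the 793 ± 309.95 CPM of MV4-11 and the 505 ± 7.34 CPM of SKNO-1, while the RMC-4550 libraries of Molm-14 and MV4-11 covered overlapping ranges. SCD had log2 changes of -2.39 for Molm-14 (SE 0.25, adjusted p = 1.9e-06), -0.86 for MV4-11 (SE 0.25, adjusted p = 0.032) and -1.19 for SKNO-1 (SE 0.25, adjusted p = 0.0021). The MV4-11 call ended without DMSO replicate 2 (-0.56), which was the highest of its group, without RMC-4550 replicate 1 (-0.67) or without RMC-4550 replicate 3 (-0.93).

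ELOVL6 (ENSG00000170522, chr4:110045846-110199199) lengthens palmitate, and its level was low. ELOVL6 had 2.17, 2.42 and 2.62 CPM with DMSO and 0.492, 0.3203 and 0.679 CPM with RMC-4550 in Molm-14. ELOVL6 had 2.798, 1.94 and 1.92 CPM with DMSO and 1.16, 0.607 and 0.964 CPM with RMC-4550 in MV4-11. ELOVL6 had 4.198, 3.95 and 4.38 CPM with DMSO and 2.36, 1.48 and 1.33 CPM with RMC-4550 in SKNO-1. At these low levels too, each RMC-4550 library lay below the DMSO libraries of its line. ELOVL6 had log2 changes of -2.26 for Molm-14 (SE 0.29, adjusted p = 1.7e-05), -1.29 for MV4-11 (SE 0.29, adjusted p = 0.0075) and -1.31 for SKNO-1 (SE 0.29, adjusted p = 0.0034). FADS1 (ENSG00000149485, chr11:61799625-61829318) desaturates polyunsaturated fatty acids. FADS1 had 12.3, 11.8 and 13.8 CPM with DMSO and 2.84, 3.07 and 2.66 CPM with RMC-4550 in Molm-14. FADS1 had 34.98, 46.95 and 34.1 CPM with DMSO and 23.6, 29.3 and 26.7 CPM with RMC-4550 in MV4-11. FADS1 had 91.4, 89.3 and 91.1 CPM with DMSO and 47.6, 45.9 and 45.97 CPM with RMC-4550 in SKNO-1. All groups were apart, and the DMSO levels were highest in SKNO-1, lower in MV4-11 and lowest in Molm-14, with no overlap. FADS1 had log2 changes of -2.13 for Molm-14 (SE 0.12, adjusted p = 3.7e-09), -0.53 for MV4-11 (SE 0.12, adjusted p = 0.0061) and -0.96 for SKNO-1 (SE 0.12, adjusted p = 1.7e-05). FADS2, the neighbouring desaturase, had log2 changes of -0.63 in Molm-14, -0.47 in MV4-11, which was not called, and -0.90 in SKNO-1. Its DMSO mean was 3.13 ± 0.404 CPM for Molm-14, 88.02 ± 18.5 CPM for MV4-11 and 268 ± 9.499 CPM for SKNO-1, so the same transcript was scarce in one line and plentiful in another.

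Whether the fall differed between lines was tested as a difference of the log2 changes. Molm-14 and MV4-11 share the FLT3-ITD label, and 15 of the 29 genes fell further in Molm-14 than in MV4-11, with 0 in the other direction (1 at an unadjusted limma p under 0.05, and 0 with voom weights), where 19.5% of all genes differed in either direction. The 15 covered every step. FADS1 differed by -1.60 (SE 0.17, adjusted p = 3.1e-05), SQLE by -1.59 (SE 0.26, adjusted p = 0.0011) and SCD by -1.53 (SE 0.35, adjusted p = 0.0089). HMGCS1 differed by -1.31 (SE 0.30, adjusted p = 0.009), DHCR7 by -1.29 (SE 0.22, adjusted p = 0.0014) and INSIG1 by -1.26 (SE 0.20, adjusted p = 0.00088). FDFT1, at -0.98 (SE 0.14, adjusted p = 0.00036), and MSMO1, at -0.75 (SE 0.12, adjusted p = 0.00066), had smaller differences with small errors. FASN and ACACA differed by -1.19 and -1.25, ACLY and ACAT2 by -1.14 and -1.12, and IDI1, PMVK and STARD4 by -0.78, -0.70 and -0.51.

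These differences moved with the mitochondrial share, which was unlike in the 2 lines. With the 4 high libraries left out, the MV4-11 change rests on 1 DMSO library, assumed to vary like the other groups. In that fit the differences were smaller: SCD -0.79, HMGCS1 -0.63, SQLE -1.04, ACLY -0.40, ACAT2 -0.53 and ACACA -0.66, while FADS1 (-1.44) and FASN (-1.02) moved less. IDI1 (-0.27), PMVK (-0.32) and STARD4 (-0.30) were not called there. With the mitochondrial share as a covariate 13 were called, and IDI1 (-0.34) and PMVK (-0.35) were not. Leaving out any 1 of 8 of the 12 libraries of the lines ended the calls of ACLY (to as little as -0.86), of PMVK (-0.48) and of IDI1 (-0.53), each time most so for RMC-4550 replicate 2 of Molm-14. ACAT2 lost its call without DMSO replicate 1 (-0.97), DMSO replicate 3 (-1.03) or RMC-4550 replicate 2 (-0.97) of MV4-11. How far the mitochondrial share accounts for the difference between the lines was not tested.

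The response of SKNO-1 was compared with the mean response of the FLT3-ITD lines, in which 3.8% of all genes differed. Of the 29 genes, 2 differed, both with a smaller fall in SKNO-1. INSIG1 differed by 0.86 (SE 0.18, adjusted p = 0.0096) and MSMO1 by 0.52 (SE 0.10, adjusted p = 0.0076) on the log2 scale. For INSIG1 the changes behind this were -1.94 and -0.68 in the FLT3-ITD lines and -0.45 in SKNO-1. For the other 27 genes a difference was not detected, which does not show that they responded alike. That count depended on the mitochondrial share. With the share as a covariate 13 genes differed, against 19.5% of all genes. All 13 had a smaller fall in SKNO-1 than the mean of both FLT3-ITD lines, which need not hold against each line. In the fit with no covariate, DHCR7, FADS1, FDFT1, SCD and SQLE of the 13 fell further in SKNO-1 than in MV4-11. ACAT2 and HMGCS1 had nearly the same change in these 2 lines. HSD17B7, IDI1, INSIG1, MSMO1, MVD and STARD4 fell less in SKNO-1 than in MV4-11.

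Other genes of lipid metabolism, in 6 lists, moved less uniformly. Their counts stand against 21.5% higher and 25.2% lower of all genes in Molm-14, 5.85% and 8.03% in MV4-11, and 10.8% and 16.2% in SKNO-1. Of 9 genes that process the SREBPs or degrade sterol enzymes, 3 were lower in Molm-14 by limma. In MV4-11 0 were called, with 1 higher and 1 lower at an unadjusted p under 0.05. INSIG2, the relative of INSIG1, had a log2 change of -0.66 for Molm-14 (SE 0.11, adjusted p = 0.00021), and its changes of -0.32 in MV4-11 and -0.28 in SKNO-1 were not called. ERLIN1, part of a degradation complex of the endoplasmic reticulum, had a log2 change of -1.25 for Molm-14 (SE 0.30, adjusted p = 0.0032) and of 0.26 and -0.20 in MV4-11 and SKNO-1, not called.

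Of the sterol export and LXR target list, 9 genes were tested in both FLT3-ITD lines and 10 in SKNO-1. In Molm-14 1 was higher and 2 were lower, in MV4-11 2 were higher, and in SKNO-1 2 were higher. ABCA1, which exports cholesterol and is switched on by LXR, had log2 changes of 0.05 for Molm-14 (SE 0.16, adjusted p = 0.81), 0.65 for MV4-11 (SE 0.16, adjusted p = 0.013) and 0.47 for SKNO-1 (SE 0.16, adjusted p = 0.043). MYLIP, an LXR-induced ubiquitin ligase, had log2 changes of 0.14 for Molm-14 (SE 0.11, adjusted p = 0.31), 0.37 for MV4-11 (SE 0.11, adjusted p = 0.038) and 0.40 for SKNO-1 (SE 0.11, adjusted p = 0.014). In SKNO-1 the ABCA1 call ended with the replicate number as a block (adjusted p = 0.052) and without any 1 of the 6 libraries (0.39 to 0.51), and in MV4-11 without DMSO replicate 3 (0.50) or RMC-4550 replicate 2 (0.56) or 3 (0.64). The MYLIP call ended in MV4-11 without DMSO replicate 1 (0.34) or 3 (0.27) or RMC-4550 replicate 2 (0.31) or 3 (0.35), and in SKNO-1 without RMC-4550 replicate 1 (0.37). NCEH1, a cholesterol ester hydrolase, had a log2 change of -0.83 for Molm-14 (SE 0.29, adjusted p = 0.03), a call that ended without RMC-4550 replicate 2 (-0.49) or without any 1 DMSO library (-0.87 to -0.77).

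The isoprenoid branches, 12 genes, had 3 higher and 4 lower in Molm-14 and 1 higher and 3 lower in MV4-11, while 3 were lower in SKNO-1. Lower in all 3 lines were RABGGTB, a subunit of the Rab prenyltransferase, and PDSS1 and COQ2, which build the tail of coenzyme Q and attach it. RABGGTB had log2 changes of -0.91 for Molm-14 (SE 0.07, adjusted p = 6.5e-08), -0.48 for MV4-11 (SE 0.07, adjusted p = 0.00018) and -0.76 for SKNO-1 (SE 0.07, adjusted p = 6.2e-07). PDSS1 had log2 changes of -0.94 for Molm-14 (SE 0.10, adjusted p = 2e-06), -0.35 for MV4-11 (SE 0.10, adjusted p = 0.025) and -0.77 for SKNO-1 (SE 0.10, adjusted p = 2.7e-05). COQ2 had log2 changes of -0.81 for Molm-14 (SE 0.11, adjusted p = 2.2e-05), -0.45 for MV4-11 (SE 0.11, adjusted p = 0.011) and -0.84 for SKNO-1 (SE 0.11, adjusted p = 3e-05). In MV4-11 the PDSS1 call ended without DMSO replicate 3 (-0.30) or RMC-4550 replicate 2 (-0.35) or 3 (-0.35), and the COQ2 call ended without DMSO replicate 3 (-0.4005) or RMC-4550 replicate 3 (-0.42). The median of the list was close to 0 in each line (-0.05, -0.14 and -0.02).

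Of 18 tested genes of further fatty acid synthesis and activation, 2 were higher and 7 lower in Molm-14, 1 was lower in MV4-11, and 1 was higher and 4 lower in SKNO-1. HACD3, a dehydratase of chain elongation, had log2 changes of -1.37 for Molm-14 (SE 0.31, adjusted p = 0.002), 0.01 for MV4-11 (SE 0.31, adjusted p = 0.99) and -0.99 for SKNO-1 (SE 0.31, adjusted p = 0.026). The acyl-CoA synthetases ACSL3 and ACSL1, which activate fatty acids, had calls of -1.25 and -1.02 in Molm-14 and of -0.54 and -0.73 in SKNO-1, with -0.48 and -0.10 in MV4-11, not called. In SKNO-1 the HACD3 call ended without any 1 of 5 libraries, all but RMC-4550 replicate 1 (-0.95, without RMC-4550 replicate 3), and the ACSL3 call without DMSO replicate 1 or 3 or RMC-4550 replicate 2 or 3 (-0.54 to -0.49). Fatty acid oxidation genes had 3 higher and 5 lower of 17 in Molm-14 and 3 higher of 18 in SKNO-1. The 8 of 17 in Molm-14 were near the share of all genes called there (46.7%). By limma 0 of 17 were called in MV4-11, with 3 higher and 2 lower at an unadjusted p under 0.05. ACAA1, a peroxisomal thiolase, was higher in Molm-14 (0.48) and SKNO-1 (0.31), with 0.22 in MV4-11, not called. Its SKNO-1 call ended without DMSO replicate 1 (0.26) or RMC-4550 replicate 2 (0.30) or 3 (0.31). ETFA, an electron carrier of oxidation, was lower in Molm-14 (-0.76), and SLC25A20, the carnitine carrier, was higher in SKNO-1 (0.69). The 11 tested genes of glycerolipid synthesis and storage had 2 higher and 2 lower in Molm-14, 1 lower in MV4-11 and 2 lower in SKNO-1. LPCAT1, which remodels phosphatidylcholine, was called higher in Molm-14 (0.22) and lower in MV4-11 (-0.27) and SKNO-1 (-0.74). GPAM and DGAT2, acyltransferases at the start and end of triglyceride synthesis, were lower in Molm-14 (-0.79 and -0.83). The GPAM call ended without RMC-4550 replicate 2 (-0.47) or without any 1 DMSO library (-0.81 to -0.78).

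**Figure D4:**
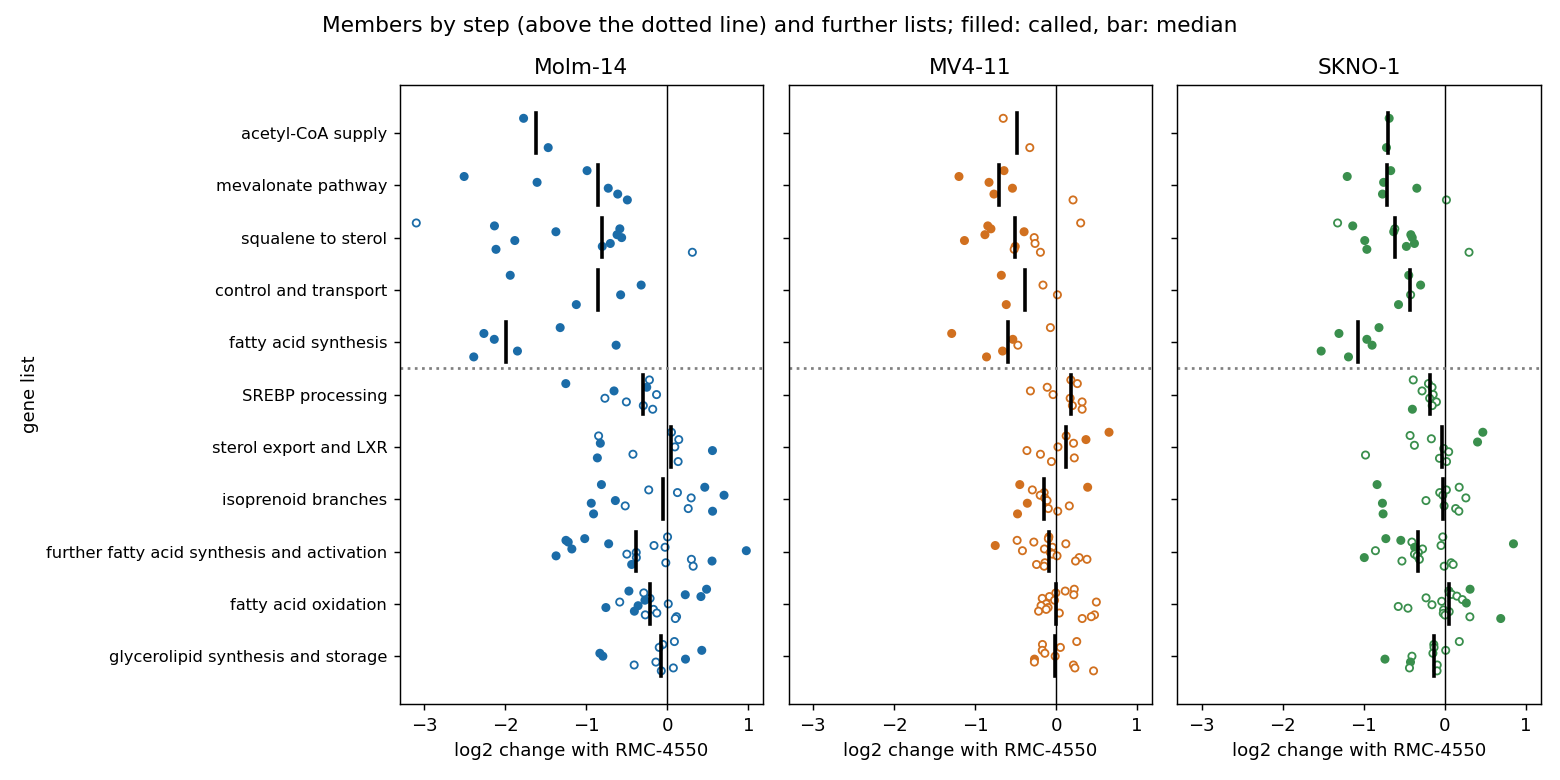
Log2 change with RMC-4550 (x axis) of every tested gene in the 5 steps of the 29 genes (above the dotted line) and in 6 further lists (below it), with 1 panel per line. Points are genes, filled where called, and the bar is the median of the row. The rows of the 29 genes have medians of -1.99 to -0.39, and those of the further lists lie between -0.38 and 0.18.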

How the data were processed

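Polyadenylated RNA of 18 cultures was amplified into DNA nanoballs and sequenced, as the labels' protocols say. The submitters' processing notes name FastQC, STAR, limma and GRCh38. The annotation, the counter and its use of strand are not given in the sources used here. The authors deposited log2 values for 40184 gene IDs. From the values, each is the log2 of reads plus 0.5, as CPM of a scaled library (scaling factors 0.890 to 1.11), and undoing this gave whole reads (within 0.05) for 100% of the values under 1000 reads. Symbols were matched for 40069 IDs. CPM was computed from these reads, with 17434810 to 19959917 reads per library. Reads are not independent molecules.

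The deposited log2 values were fitted with limma 3.58.1 in R 4.3.3 (intensity trend, two-sided, 1 coefficient per group, all 18 samples). The planned addition of a pseudocount was not needed. A gene was tested if 3 or more of all samples, and 3 or more of the line, had 1 CPM or more, and p-values were adjusted by Benjamini-Hochberg over all genes of a contrast. The fit was tested on simulated data. The recovered reads were tested with voom weights as an alternative, and no other count model was run.

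Values in every library are given for members called in the same direction in at least 2 lines or called between lines, at most 5 per step by the largest change, and for SREBF1, SREBF2, INSIG1, SCD and FASN. Other lists name up to 3 genes called in most lines. TM7SF2 was given in full after its values were seen. The members and the lists were chosen with earlier results of these data known. Results of some genes of the lists are not reported here. Replicate numbers were checked by correlating deviations from the group means over 12792 genes. Same-numbered samples gave 0.29, 0.10 and 0.11 in SKNO-1 (each over 0.1), so those numbers may pair cultures, while the other lines did not reach this in every pair. Alternatives were log2(CPM + 1), no filter, a mean CPM of 5 or more, median-ratio and quantile scaling, a separate fit per line, the replicate block, the mitochondrial share as a covariate, voom weights and leaving out each library. Leaving out the 4 libraries over 10% mitochondrial reads was added after seeing the data. Promoters came from RefSeq (GRCh38.p14), positions and exon overlaps from GENCODE 29. Plots were made in Python 3.11.15 with matplotlib 3.10.9.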

Additional observations from a re-analysis of the deposited data

Results flagged for a closer look

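The change with RMC-4550 differed between lines, by the limma test of the difference of log2 changes, for the following genes. Compared with the mean of the FLT3-ITD lines, the fall in SKNO-1 was smaller for INSIG1 (0.86) and MSMO1 (0.52). Between Molm-14 and MV4-11 the fall was larger in Molm-14 for 15 genes. In fatty acid synthesis these were FADS1 (-1.60), SCD (-1.53), ACACA (-1.25) and FASN (-1.19). On the sterol branch they were SQLE (-1.59), DHCR7 (-1.29), FDFT1 (-0.98) and MSMO1 (-0.75). Among mevalonate genes they were HMGCS1 (-1.31), IDI1 (-0.78) and PMVK (-0.70). In acetyl-CoA supply they were ACLY (-1.14) and ACAT2 (-1.12), and among control and transport genes INSIG1 (-1.26) and STARD4 (-0.51). The libraries with a high mitochondrial share belong to these 2 lines, and the values without them stand beside the comparison in the results. No cause was tested.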

How the results depend on the processing

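The count of genes called lower stayed within 1.5 times its value under most alternatives. It was 25 to 28 in Molm-14 over the alternatives that kept all libraries of the line, and 23 to 27 as single libraries were left out. Of all genes, 16.7% (no filter) to 57.5% (covariate) were called there in either direction over those alternatives. As single libraries were left out, that share was 38.8% to 48%. With a mean of at least 5 CPM 26 genes were tested there, and 28 without any 1 DMSO library. In MV4-11 it was 7 with a separate fit per line, 26 once the mitochondrial share was a covariate, and 16 to 18 as single libraries were left out. Of all genes, 4.57% were called in either direction with the separate fit and 34.3% with the covariate, against 13.9% in the fit used above. As single libraries were left out, 8.12% to 20.6% were called in MV4-11. In SKNO-1 the count was 20 to 27, and 17 to 20 as single libraries were left out (19.5% to 21.7% of all genes in either direction). The 20 came with no filter, with 8.38% of all 40184 genes called in either direction. The 27 came with a separate fit (57.6% of all genes) and with the covariate (49.6%), against 27.1% in the fit used above. The separate fit per line used the samples of 1 line at a time. It called fewer of all genes in MV4-11 and more in SKNO-1 than the fit used above. The calls it ended in MV4-11 were those of EBP, ELOVL6, FADS1, FASN, FDFT1, FDPS, INSIG1, MVD, SC5D and SCD. The cause of these shifts was not tested.

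TM7SF2 was called higher in Molm-14 (a count of 1) under median-ratio scaling, quantile normalization and the replicate block. It was called higher in SKNO-1 (also a count of 1) under a separate fit per line, the replicate block, the mitochondrial covariate and without the 4 libraries. With the replicate block, 28, 19 and 25 genes were called lower in the order Molm-14, then MV4-11, then SKNO-1, and 16 and 2 differed between Molm-14 and MV4-11 and between SKNO-1 and the others. Of all genes, 49.7%, 13.4% and 29% were called in either direction in the lines, and 24% and 3.06% in the 2 comparisons between lines. Deviations of same-numbered samples correlated at -0.10, -0.02 and 0.06 in Molm-14 and at 0.59, 0.76 and -0.56 in MV4-11, and not every sample correlated best with its own number. Calls of named genes that the block changed were those of EBP and TM7SF2 (gained) and ABCA1 (lost) in SKNO-1, of ACAT2 and SQLE (gained) and PDSS1 (lost, adjusted p = 0.064) in MV4-11, and of CYP51A1 and TM7SF2 (gained) in Molm-14. For ACAT2 and SQLE the adjusted p was 0.021 and 0.034.

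The median change in Molm-14 was -1.05 with the mitochondrial covariate, -1.10 without the 4 libraries and -1.42 to -1.10 as single libraries were left out. In SKNO-1 it was -0.62 with median-ratio scaling, -0.63 with quantile normalization, -0.65 with the covariate and -0.71 to -0.64 as single libraries were left out. The number of genes whose change differed in SKNO-1 was 13 with the covariate, 12 without the 4 libraries and 2 to 3 as single libraries were left out. Between Molm-14 and MV4-11 it was 11 with no filter and 11 to 21 as single libraries were left out. With median-ratio scaling 1971 of all genes were higher and 1933 lower in SKNO-1, against 1588 and 2381.

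Some changes near 0 turned direction. SREBF2 in MV4-11 was -0.032 with quantile normalization, -0.23 with the covariate, -0.20 without the 4 libraries and -0.0918 to 0.21 as single libraries were left out. CYP51A1 in MV4-11 was -1.52 with the covariate, -0.54 without the 4 libraries and -0.29 to 1.67 in the leave-one-out fits. TM7SF2 in MV4-11 was 0.0204 without the 4 libraries. Leave-one-out ranges crossed 0 in MV4-11 for ACACA (-0.22 to 0.19) and ACLY (-0.50 to 0.0184), and in SKNO-1 for PMVK (-0.0427 to 0.0669). Of the other values of single members in a line, 1230 kept their direction and their side of the threshold, 75 lost the call and 56 gained one. Between lines 333 kept it and 36 lost it. In the further lists 449 kept it and 63 lost it, with 0 reversed. Between lines and in the further lists, only values called in the fit used above were followed, so gains could not be counted. CYP51A1 and ELOVL6 had at most 4.46 CPM in any library, and FADS2 in Molm-14 was at 1.86 to 3.57 CPM. The exon bases that CYP51A1 shares with AC000120.2 also make its count uncertain. The part of depth in these low counts was not tested.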
